A study of Drosophila melanogaster with 4 samples.

Results

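The Hox complexes of Drosophila melanogaster, the Antennapedia complex and the Bithorax complex, lie on arm 3R and together hold 8 Hox genes. Both were defined by position, as the FlyBase release 5 interval from 2490000 to 2825000 of 3R for the Antennapedia complex (lab, pb, Dfd, Scr and Antp) and from 12482000 to 12800000 for the Bithorax complex (Ubx, abd-A and Abd-B). The intervals measure 335001 and 318001 bp. The intervals were chosen with results of these lists in view, so their lack of clusters is a description and was given no test. H2Bub, histone H2B carrying ubiquitin, was immunoprecipitated with the antibody NRO3 from head nuclei of mixed adults of Oregon-R, a wild-type strain for which the labels list no transgene or treatment. There were 2 ChIP replicates and 2 inputs, each input serving the ChIP replicate of its number. The data are lists of regions that the authors scored as enriched, called clusters here: 1 list for each ChIP replicate and 1 combined list. The labels do not say that the replicates came from separate flies, so the SD over them may be technical, and read depth is not given in the lists. Neither interval held any part of the 5440 clusters of replicate 1, the 5597 of replicate 2 or the 6056 of the combined list.

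Hox genes encode transcription factors with a homeodomain, and the order of the genes along the chromosome follows the order of the body regions they pattern. Outside their own regions Hox genes are known to be kept silent by Polycomb group proteins, which mark chromatin with trimethylated H3K27 and with ubiquitin on H2A, a different histone from the one mapped here. H2Bub is placed by the ubiquitin ligase Bre1 with the conjugating enzyme Rad6 and is known from the bodies of genes that RNA polymerase II is transcribing. A cluster is a region where the authors' analysis found enrichment. A stretch without a cluster is therefore one where nothing passed their threshold, and not one where the mark was measured as 0. Since whole heads were used, a mark on few cells and a weak mark on many cells cannot be told apart.

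The 8 Hox genes span the body axis in their roles, and by the rule each belongs to an interval that held 0 clusters in all 3 lists. In the Antennapedia complex, lab acts in the most anterior Hox region of the head, pb in the adult mouthparts and Dfd in the mandibular and maxillary segments. Scr acts in the labial segment and the anterior thorax, and Antp in the thorax, where it sets leg against antenna. In the Bithorax complex, Ubx sets the identity of the haltere segment, abd-A that of the anterior abdomen and Abd-B that of the posterior abdomen and genitalia. With both intervals empty, the lists could not set the genes that act in the head apart from those of the thorax and abdomen. The bounds of single genes could not be placed on the lists, because gene positions were at hand only for release 6 of the genome. The empty intervals are therefore a result for each complex as a whole. For the same reason neither the head tissue nor the labels of the complexes could be checked against genes.

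The complexes also hold other genes, which share the absence of clusters as far as the order of genes shows. In the release 6 table of RefSeq, 45 genes lie from lab to Antp, of which 20 code for proteins, and 15 of those are not among the 5 Hox genes. They include bcd, which sets the anterior pole of the embryo, the pair-rule gene ftz, zen and zen2, the adhesion gene Ama and 7 cuticle genes of the Ccp84A group. From Ubx to Abd-B the table lists 17 genes, 6 of them coding, and next to the 3 Hox genes these are CG31275, Glut3 and MSAmiP. The non-coding RNAs bxd, iab4 and iab8 also lie there. The nearest coding genes outside are agt before lab, Sodh1 after Antp, modSP before Ubx and VhaM9.7-d after Abd-B. No cluster was assigned to any of these neighbours.

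The stretch without a cluster was longer than the complex on each side, and its ends fell at nearly the same bases in both replicates. Around the Antennapedia complex it ran from 2485226 to 2892286 in replicate 1, from 2484912 to 2892291 in replicate 2 and from 2485695 to 2890491 in the combined list. It measured 407.061 kb in replicate 1, 407.38 kb in replicate 2 and 404.797 kb in the combined list, a replicate mean of 407 ± 0.226 kb (SD, n = 2). The replicates placed its left end 314 bp apart and its right end 5 bp apart. Around the Bithorax complex it ran from 12471423 to 12815974 in replicate 1, from 12471021 to 12816028 in replicate 2 and from 12474933 to 12815945 in the combined list. It measured 344.552, 345.008 and 341.013 kb in these lists, with a replicate mean of 345 ± 0.322 kb (SD, n = 2). Its ends differed between the replicates by 402 bp on the left and 54 bp on the right. These differences are small beside the stretches themselves, so the 2 libraries give the same picture at both complexes.

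**Figure D1:**
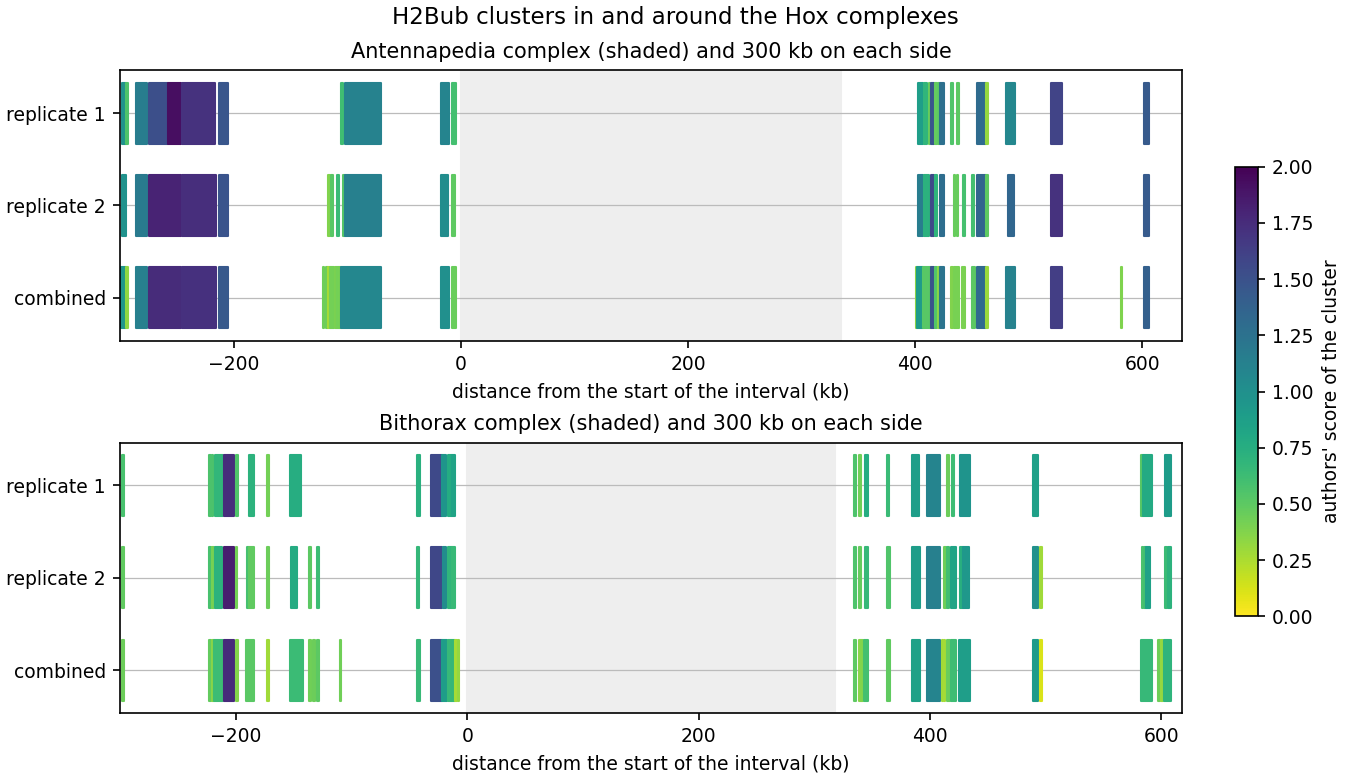
Clusters of replicate 1, replicate 2 and the combined list (rows) in the Antennapedia complex (top) and the Bithorax complex (bottom) and in 300 kb on each side, against the distance in kb from the start of the interval; shading marks the interval and colour the authors' score, which is to be read within a row. No bar lies in a shaded interval, and the bars nearest to it stand at close to the same places in all rows.

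The clearance around the complexes was lopsided at the Antennapedia complex and more even at the Bithorax complex. Left of the Antennapedia interval, on the side of lab, the nearest cluster ended 4774 bp before the interval in replicate 1, 5088 bp in replicate 2 and 4305 bp in the combined list. On the side of Antp the empty stretch went on for 67286 bp past the interval in replicate 1, 67291 bp in replicate 2 and 65491 bp in the combined list. Left of the Bithorax interval, on the side of Ubx, it reached 10577, 10979 and 7067 bp beyond the interval in these lists. On the side of Abd-B it reached 15974, 16028 and 15945 bp beyond. A cluster was thus close by at the borders next to lab, Ubx and Abd-B, and far off only next to Antp. These distances depend on the interval bounds, which are given to the nearest kb or coarser.

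Among clusters of the replicates, the one that bordered the Antennapedia complex ranked lower in score on the left than on the right; in the combined list, which added a narrow cluster on the right, the order was the other way round. The left border cluster, from 2481792 to 2485694 in the combined list, was 3377 bp wide in replicate 1, 3060 bp in replicate 2 and 3903 bp in the combined list. Its score stood at percentiles 23.3, 10.1 and 34.6 among the 3R clusters of the same lists, so it was a weak cluster in each. A stronger one stood behind it, from 2472026 to 2479394 in the combined list, at percentile 72.6 in replicate 1, 69.0 in replicate 2 and 74.8 for the combined list. On the right, the combined list added a cluster of 1099 bp from 2890492 to 2891590, at score percentile 7.58, that overlapped no cluster of either replicate. The right border cluster of the replicates ran from 2892287 to 2896843 in replicate 1, at score percentile 58.9, and from 2892292 to 2896960 in replicate 2, at percentile 77.0. The next combined cluster, from 2891698 to 2897136, took in the bases of both and stood at score percentile 70.4.

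At the Bithorax complex the border clusters were narrow and of low to middle rank on both sides. On the left the border cluster ran from 12468917 to 12471422 in replicate 1 (2506 bp, score percentile 54.5) and from 12468859 to 12471020 in replicate 2 (2162 bp, percentile 34.7). The combined list held 2 further clusters still closer to Ubx, of 1101 bp from 12471648 to 12472748 and of 1323 bp from 12473610 to 12474932. They stood at score percentiles 2.84 and 6.49 and overlapped no replicate cluster. On the right the border cluster ran from 12815975 to 12817999 in replicate 1, from 12816029 to 12818037 in replicate 2 and from 12815946 to 12818096 in the combined list. Its score percentile was 16.2 in replicate 1, 18.6 in replicate 2 and 39.9 for the combined list. With only the upper 50% of each list by score, the empty stretch grew on this side to 12866287 in replicate 1 and 12866231 in replicate 2, in replicate 2 also on the left, to 12463657, and its length came to 394.865 and 402.575 kb. At the Antennapedia complex the same restriction gave 412.912 and 414.153 kb, a smaller step.

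The complexes were the longest and the second longest stretches without a cluster on 3R, in each of the 3 lists. Among 1229 stretches of 3R in replicate 1, 1292 in replicate 2 and 1373 for the combined list, the Antennapedia stretch ranked 1 and the Bithorax stretch ranked 2. The median stretch of the arm was 3574 bp in replicate 1, 3450 bp in replicate 2 and 2661 bp in the combined list. The next in the combined list were 3R from 1834951 to 2170173 (335.223 kb), from 3095939 to 3298185 (202.247 kb) and from 22097279 to 22277561 (180.283 kb). The Bithorax stretch was thus only slightly longer than the third, whereas a wide step separated the third from the fourth. Stretches of over 300 kb numbered 3 in every list and those of over 100 kb numbered 36 in replicate 1, 33 in replicate 2 and 26 for the combined list. Over the 5 large arms the Antennapedia stretch ranked 2 in all 3 lists. The Bithorax stretch ranked 8 in each replicate and 7 among combined clusters. On the other large arms, therefore, 1 stretch was longer than the Antennapedia stretch.

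**Figure D2:**
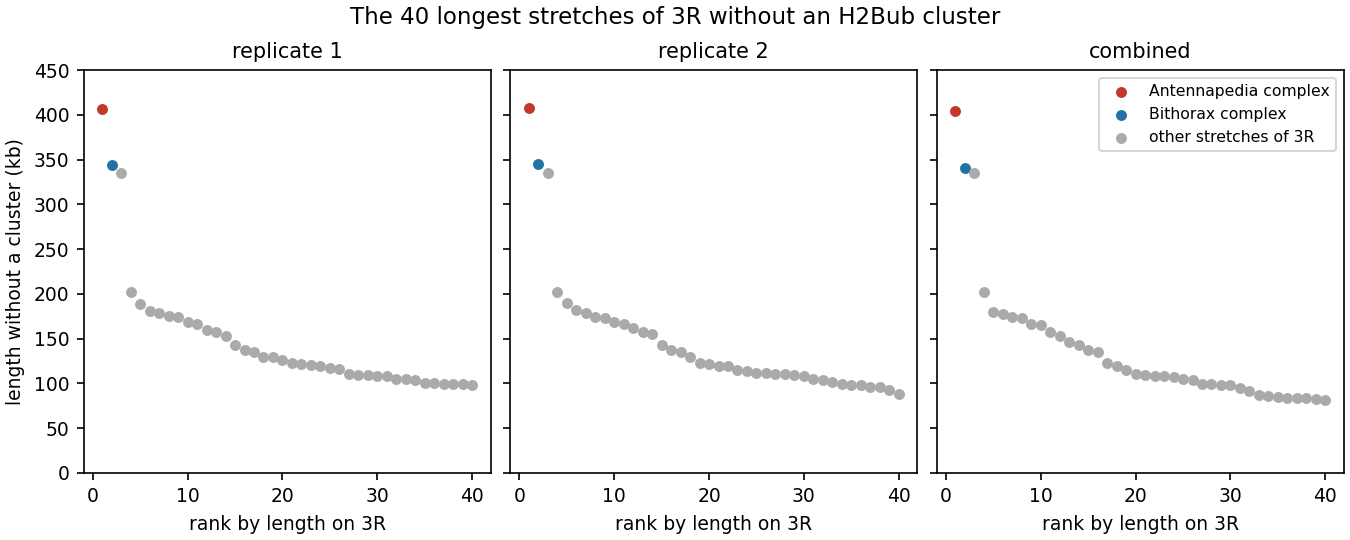
Length in kb of the 40 longest stretches of 3R without a cluster, by rank, for replicate 1, replicate 2 and the combined list; red marks the stretch around the Antennapedia complex, blue that around the Bithorax complex and grey all others. In each list red and blue stand first and second, a grey point at 335 kb follows closely, and all others lie at 202 kb or below.

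Few windows of the same length as a complex were empty along the arm. At the Antennapedia length most of these touched the complex itself, and at the Bithorax length most did not. Of 5516 windows as long as the Antennapedia interval, started every 5 kb along 3R and including the interval itself, 18 held no cluster in replicate 1 (0.326%), 19 in replicate 2 (0.344%) and 18 for the combined list (0.326%). Of 5519 windows as long as the Bithorax interval, 27 held no cluster in replicate 1 (0.489%), 28 in replicate 2 (0.507%) and 27 for the combined list (0.489%). Among windows that did not touch the complex, 3 of 5381 were empty at the Antennapedia length in each list (0.0558%). Of 5391 at the Bithorax length, 21 were empty in replicate 1 (0.390%), 22 in replicate 2 (0.408%) and 21 for the combined list. Such windows could lie over the other complex, so these shares do not describe the arm outside both complexes. Neighbouring windows overlap, so these counts reduce in each list to 3 separate stretches: those around the 2 complexes and the 335 kb stretch named above. The median window of the Antennapedia length was covered for 27.6% in replicate 1, 28.3% in replicate 2 and 33.0% for the combined list, and held 14, 15 and 15.5 clusters. At the Bithorax length the medians were 27.8, 28.4 and 32.7% of bases and 14, 14 and 15 clusters. Starting windows every 50 kb gave 0.542 and 0.723% for the Antennapedia and Bithorax lengths as means of the replicates, against 0.335 and 0.498% every 5 kb, and the upper 50% of clusters by score gave 0.644 and 0.861%. The interval itself was counted among the windows at either spacing, so it weighs more where windows are fewer, which adds to the share at 50 kb. The share also depends on the threshold, and it carries no p-value, since the intervals were chosen on these lists.

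**Figure D3:**
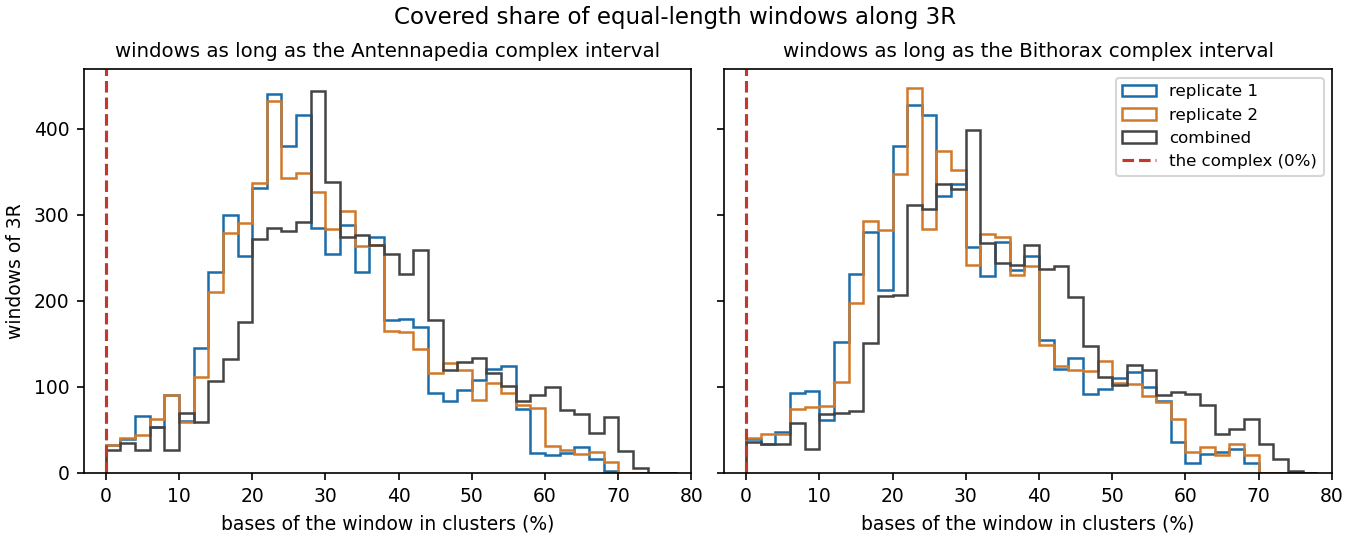
Number of windows of 3R (vertical axis) by the share of their bases inside clusters (horizontal axis, %), for windows as long as the Antennapedia interval (left) and the Bithorax interval (right), in replicate 1, replicate 2 and the combined list; the dashed line marks the complexes, at 0%. Most windows lie between 10 and 60%, and the complexes stand at the lower end of the scale.

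The flanks of the Antennapedia complex differed from each other. In 300 kb on the side of lab, clusters covered 41.7% of bases in replicate 1, 42.3% in replicate 2 and 46.9% for the combined list, a replicate mean of 42.0 ± 0.405% (SD, n = 2). In 300 kb on the side of Antp they covered 17.4, 17.5 and 22.4% in these lists, a replicate mean of 17.5 ± 0.103%. Arm 3R as a whole had 29.7% in replicate 1, 30.3% in replicate 2 and 34.9% for the combined list, so the left flank lay above the arm and the right flank below it. Against windows of 300 kb along 3R the left flank stood at percentile 80.9 in replicate 1, 81.0 in replicate 2 and 79.4 for the combined list. The right flank stood at percentiles 17.4, 16.6 and 19.0. Both replicates gave the same order of the flanks, and the difference was not tested.

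Wide domains held much of the left flank of the Antennapedia complex, and the right flank had none over 10 kb. The left flank held 4 clusters of over 10 kb in replicate 1, 3 in replicate 2 and 4 for the combined list, and the right flank held none in any list. Of all clusters on 3R, 16.8% in replicate 1, 16.0% in replicate 2 and 17.3% for the combined list were over 10 kb wide. With only 14, 14 and 17 clusters in the right flank of these lists, few of that width would be present at the share of the arm, and the absence is a count without a test. The widest on the left ran from 2384370 to 2419520 in the combined list (35151 bp, score percentile 78.0), some 70.5 kb from the interval. The highest score on the left belonged to 2214890 to 2243584 (28695 bp, score 1.75, percentile 98.0). Replicate 1 listed that domain as 2 adjoining clusters of 16935 and 11585 bp, and replicate 2 as 1 cluster of 28624 bp. On the right the widest combined cluster, from 3009818 to 3019638 (9821 bp), also had the highest score (1.64, percentile 96.2). Clusters of high score were therefore found on both sides, and the widest was narrower on the right.

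Clusters reappeared within 100 kb of each border, and coverage in steps of 50 kb differed between the sides. Next to lab, the first 50 kb were covered for 21.4% in replicate 1, 18.3% in replicate 2 and 22.5% for the combined list, and the following 50 kb for 58.9, 58.9 and 59.0%. Next to Antp, the first 50 kb held no cluster in any list and the following 50 kb were covered for 40.2% in replicate 1, 37.3% in replicate 2 and 52.0% for the combined list. Next to Ubx, the first 50 kb were covered for 40.0, 40.2 and 47.9% and the following 50 kb for 0% in all lists. Next to Abd-B, the values were 16.9, 16.7 and 23.0% and then 38.5, 42.2 and 47.4%. Each flank also held a gap of its own, counted only where the gap did not cross a flank edge. In the combined list the longest were 83.187 and 51.623 kb at the Antennapedia complex, left and right, and 72.891 and 85.795 kb at the Bithorax complex. In the same order they were 99.602, 71.972, 100.508 and 88.99 kb in replicate 1 and 88.265, 71.927, 85.069 and 86.305 kb in replicate 2. All of these were far shorter than the stretches over the complexes.

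**Figure D4:**
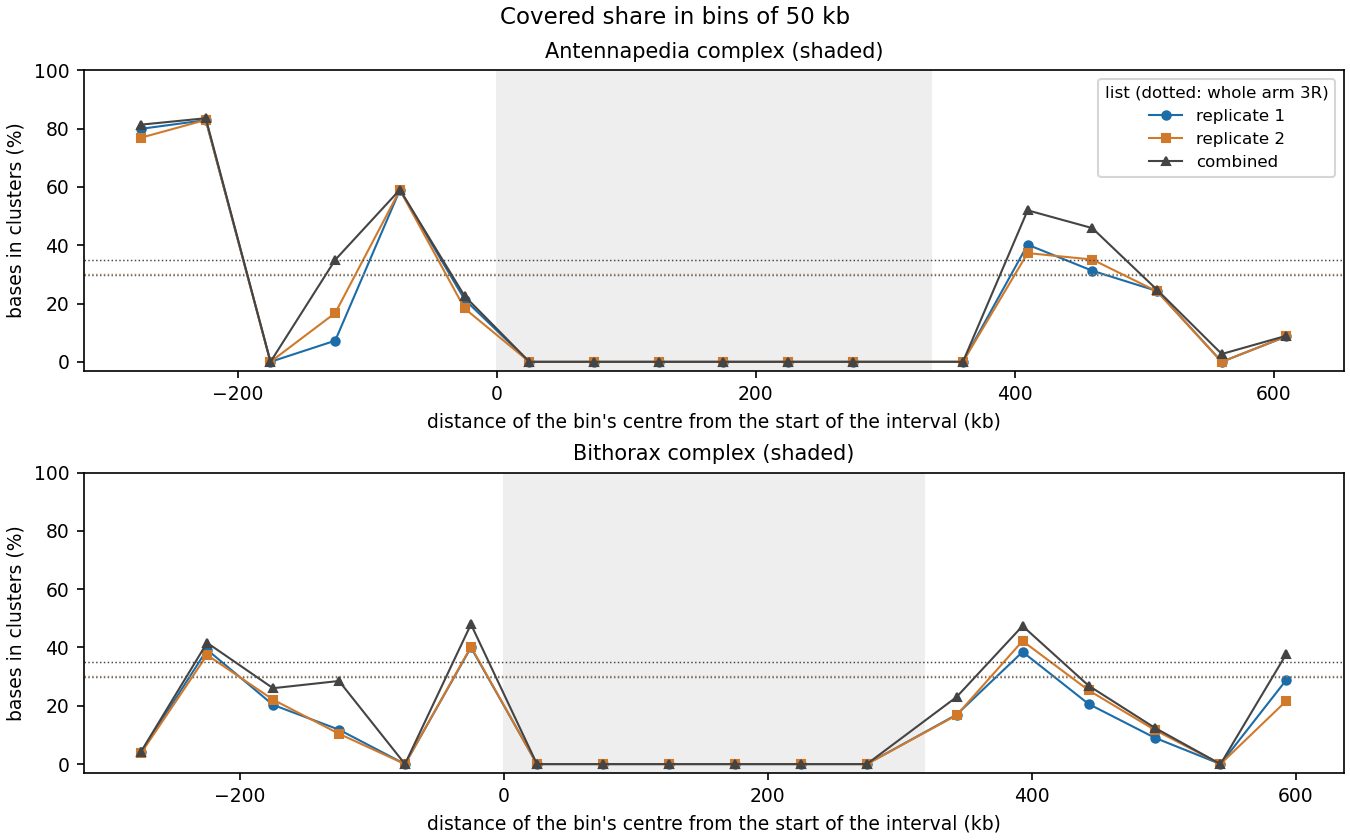
Share of bases in clusters (%) in bins of 50 kb, against the distance in kb of the bin's centre from the start of the interval, for replicate 1, replicate 2 and the combined list at the Antennapedia complex (top) and the Bithorax complex (bottom); shading marks the interval and dotted lines the share of the whole arm 3R. All bins inside the intervals are at 0%, and the highest, near 83%, lies in the left flank of the Antennapedia complex.

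Over 300 kb, the flanks of the Bithorax complex were covered to a like extent and both lay below the arm, but nearer to the complex they differed. The left flank was covered for 19.2% in replicate 1, 19.0% in replicate 2 and 24.7% for the combined list, a replicate mean of 19.1 ± 0.174% (SD, n = 2). The right flank was covered for 19.0, 19.6 and 24.6%, a replicate mean of 19.3 ± 0.441%. Over this length the flanks differed from each other by less than the SD of the right one. Within 100 kb of the interval, coverage was 20.1 ± 0.0820% on the left and 28.6 ± 1.26% on the right (SD, n = 2), the right being close to the arm. In the first 50 kb the order was reversed, with 40.0, 40.2 and 47.9% on the left and 16.9, 16.7 and 23.0% on the right. These values are for replicate 1, replicate 2 and the combined list, so the direction depends on the length taken. The percentiles of the whole flanks among windows of 300 kb were 22.8 and 22.1 in replicate 1, 20.7 and 22.6 in replicate 2 and 26.2 and 26.0 in the combined list, left and right. Clusters were narrow here, with medians of 2754 bp in replicate 1, 2149 bp in replicate 2 and 2178 bp in the combined list over both flanks, against 3698, 3676.5 and 3744 bp on 3R. Medians over both flanks of the Antennapedia complex were also below the arm, by less, at 3526, 3322 and 3199 bp in these lists. Much of the marking in the Bithorax flanks was of low score. With the upper 50% of each list by score, their covered share fell to a replicate mean of 9.83%, against 19.2% with all clusters. The flanks of the Antennapedia complex kept 26.2% against 29.7%. The share of the whole arm under this cut is not given here, so how much of the fall is usual on 3R cannot be told.

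Named clusters of the Bithorax flanks show this mixture of widths and ranks. On the side of Ubx the widest combined cluster, from 12328512 to 12340014 (11503 bp), had a middling score (0.637, percentile 52.8). The highest score on that side, 1.76 at percentile 98.0, belonged to 12271148 to 12280240 (9093 bp), some 202 kb from the interval. Closer in, the cluster from 12450434 to 12460342 (9909 bp, percentile 94.1) lay 21.7 kb from the interval and was the strongest within 100 kb of it on that side. On the side of Abd-B the widest combined cluster, from 12879462 to 12890962 (11501 bp), was also the highest in score (1.10, percentile 79.7) and lay 79.5 kb away.

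The replicates shared most flank clusters, and those they did not share were narrow. At the Antennapedia complex 21 of 25 flank clusters of replicate 1 overlapped a cluster of replicate 2 by at least 1 bp (84.0%, 95% Wilson interval 65.3 to 93.6%), and 20 of 26 of replicate 2 overlapped one of replicate 1 (76.9%, 57.9 to 89.0%). At the Bithorax complex the counts were 27 of 27 (100%, 87.5 to 100%) and 30 of 35 (85.7%, 70.6 to 93.7%). Such intervals cover counting error alone and take each cluster as independent. Clusters found in a single replicate were at most 1966 bp wide at the Antennapedia complex and 1610 bp at the Bithorax complex. Over all of 3R such clusters were narrow as well, with medians of 1571 bp in replicate 1 and 1548 bp in replicate 2. The widest of them on the arm reached 3973 and 8966 bp. The combined list added 6 of its 33 flank clusters at the Antennapedia complex and 8 of its 38 at the Bithorax complex that overlapped no replicate cluster, none wider than 1829 and 1927 bp. Over all of 3R, 92.7% of replicate 1 clusters and 89.4% of replicate 2 clusters had a partner in the other replicate, and 17.0% of combined clusters overlapped neither. The Wilson intervals of the flanks include these shares of the arm, except that of replicate 2 at the Antennapedia complex, whose upper bound of 89.0% lies just under the 89.4% of the arm. No test of the flanks against the arm was made. No cluster found in the combined list alone fell in a complex, which follows from both intervals being empty in all 3 lists.

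Coverage of the complexes and their flanks taken as 1 region contains the empty intervals, which were chosen with results known, and is given as a description only. Without the interval, the flanks of the Antennapedia complex were covered for 29.6% in replicate 1 and 29.9% in replicate 2, close to the 29.7 and 30.3% of the arm, and those of the Bithorax complex for 19.1 and 19.3%. The 918001 bp of the Bithorax interval and its flanks were covered for 12.5% in replicate 1, 12.6% in replicate 2 and 16.1% for the combined list, which put them at percentiles 1.52, 2.07 and 2.20 among windows of that length on 3R. The 935001 bp of the Antennapedia interval and its flanks were covered for 19.0, 19.2 and 22.2% in these lists, at percentiles 11.3, 10.9 and 9.62. Between the complexes the arm ran on for 9.58 Mb in each list and held 431 replicate 1 clusters, 438 replicate 2 clusters and 497 combined ones, covering 27.8, 28.6 and 33.2% of it. The longest gap within that part was 202.429 kb in replicate 1, 202.337 kb in replicate 2 and 202.247 kb in the combined list. This stretch begins inside the right flank of the Antennapedia complex, past its last cluster, and runs on beyond the flank.

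The Antennapedia complex therefore sat among other long gaps, a neighbourhood picked out after its values were seen. From 1834951 to 3298185 of the combined list, the 1.46 Mb held the longest, the third longest and the fourth longest empty stretches of 3R, which together took 64.4% of it, with 64.6% in each replicate. A block of 315.521 kb with 18 clusters, covered for 48.7%, separated the first of these gaps from the complex, and a block of 205.447 kb with 17 clusters, covered for 32.7%, separated the complex from the last. In replicate 1 these blocks were covered for 43.2 and 25.6%, and in replicate 2 for 44.3 and 25.9%. No range of like length was examined around the Bithorax complex, so the 2 neighbourhoods are not compared. Within its flanks of 300 kb, a shorter range, the longest gap of the combined list was the 85.795 kb named above.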

How the data were processed

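H2Bub was measured by ChIP-seq in 2 ChIP samples of adult heads with 2 inputs; the inputs have no list of their own among the files used here. The submitters' processing notes name Bowtie 0.12.7. The deposited files give each region a start, an end and a score, in FlyBase release 5 coordinates per the file headers. How the authors scaled the score, called clusters, set a threshold or built the combined list is not given in the sources used here. Scores were ranked within a list only. Regions typed as depleted (2, in the combined list, none on 3R) were left out.

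Coordinates were read as 1-based and inclusive. Covered share is the bases inside clusters over all bases; percentiles are shares of 3R clusters or windows at or below a value. Windows started every 5 kb. Means are over replicates. Functions for covered bases, gaps and the coverage of a window were right in 50 of 50 runs on simulated clusters. Ranks, percentiles and sharing between replicates were not tested in this way. The intervals, the lists compared and the rule for named clusters (borders, and the widest and highest-scoring of each flank) were chosen with earlier results of these data known. The rule's stretches were the 5 longest of 3R. Flank sequences and release 5 gene positions were not used here. Python 3.11.15, NumPy 2.4.6, SciPy 1.17.1 and matplotlib 3.10.9 were used. Alternatives were the upper 50% by score, merging of clusters less than 1000 bp apart, bounds moved by 20 kb, flanks of 100 kb, other windows, a reciprocal overlap of 50%, and leaving out each replicate.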

Additional observations from a re-analysis of the deposited data

How the results depend on the processing

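No paired analysis was possible because only the ChIP samples have cluster lists here, and nothing was tested between groups. Both intervals kept a covered share of 0% with the upper 50% by score, with merging, narrowed by 20 kb and in either replicate alone. None of these settings could add a cluster to an empty interval, so this outcome was fixed in advance and lends no support. Widened by 20 kb on each side, the intervals took in border clusters and came to 2.64% (Antennapedia) and 2.49% (Bithorax). In the same order, flank shares were 26.2 and 9.83% with the upper 50%, 30.1 and 19.8% with merging and 29.4 and 24.3% in flanks of 100 kb. The share of windows covered no more than the complex was 0.411 and 0.539% over all 5 large arms, 0.542 and 0.723% with starts every 50 kb, and 0.644 and 0.861% with the upper 50%. The length of the empty stretch, an alternative chosen after seeing the data, was 414 and 399 kb with the upper 50%, which removes weak border clusters, and did not move with merging; with the upper 50% the stretches still ranked 1 and 2 on 3R in each list. Leaving out each replicate restates the other: flanks 29.6 to 29.9% and 19.1 to 19.3%, windows 0.326 to 0.344% and 0.489 to 0.507%. Reciprocal overlap of 50% lowered the shared flank clusters of replicates 1 and 2. At the Antennapedia complex they went from 84.0 and 76.9% to 76.0 and 73.1%. At the Bithorax complex they went from 100 and 85.7% to 92.6 and 71.4%. The lower values lie within the Wilson intervals, but these cover counting error and do not measure a change of definition. Read depth is unknown, so a mark below the authors' threshold could not be measured.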
